A study of Mus musculus with 37 samples.

Results

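Among genes with a contralateral difference both after injury and with epilepsy, *Ceacam1*, *Cd38*, *Anxa5* and *Ccn3* were followed through both hemispheres of the mouse cortex. They are 4 of the 21975 genes listed for each hemisphere, and they were chosen on the contralateral libraries, where their levels differed between injured and sham mice and again between mice with and without post-traumatic epilepsy. Controlled cortical impact (CCI), a unilateral contusion made over the right parietal cortex, was given to wild-type mice, and sham mice had the craniectomy and the recording electrodes without the impact. Injured mice were separated by video-EEG into those that developed spontaneous seizures (PTE+) and those that did not (PTE-), and all mice were taken 4 months after surgery. Astrocytes were pulled from each cortical hemisphere with MicroBeads that recognise ACSA-2, a surface antigen of astrocytes, and their RNA was sequenced. The ipsilateral side gave 5 sham, 10 PTE- and 4 PTE+ libraries, and the contralateral side gave 5 sham, 9 PTE- and 4 PTE+ libraries. Of 20 mice, 17 gave both sides. The methods name the strain CD1 and use males, while the labels give CD31. Libraries of both PTE+ and PTE- mice are called CCI.

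*Ceacam1* encodes a cell adhesion receptor of the immunoglobulin family that is known from epithelium, endothelium and leukocytes, binds itself on neighbouring cells and carries inhibitory signals through phosphatases recruited to its tail. *Cd38* encodes an ectoenzyme that consumes NAD and makes the calcium messenger cyclic ADP-ribose, and in the brain it is known from astrocytes and microglia. *Anxa5* encodes annexin A5, which binds phosphatidylserine in membranes when calcium is present, and *Ccn3* encodes a secreted matricellular protein of the CCN family that binds integrins and Notch.

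On GRCm38 *Ceacam1* lies on the minus strand at chr7:25461707-25477603, *Cd38* on the plus strand at chr5:43868553-43912375, *Anxa5* on the minus strand at chr3:36448923-36475894 and *Ccn3* on the plus strand at chr15:54745702-54754039. RefSeq promoters (GRCm38.p6) matched 3 of the 4 members, and the 250 bases before the RefSeq start are shown for *Ceacam1* and *Anxa5*, the members that were higher after injury on the ipsilateral side. Each reads 5′ to 3′ on the strand of its gene, with motif letters in capitals. The windows lie at chr7:25477626-25477875 and chr3:36475888-36476137. The RefSeq window of *Cd38* lies within the *Cd38* gene as GENCODE places it, and is not shown.
Ceacam1: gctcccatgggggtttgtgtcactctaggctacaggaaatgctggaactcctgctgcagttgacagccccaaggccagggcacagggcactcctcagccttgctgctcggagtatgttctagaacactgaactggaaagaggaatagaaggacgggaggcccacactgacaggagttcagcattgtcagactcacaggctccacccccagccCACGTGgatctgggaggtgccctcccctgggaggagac
Anxa5: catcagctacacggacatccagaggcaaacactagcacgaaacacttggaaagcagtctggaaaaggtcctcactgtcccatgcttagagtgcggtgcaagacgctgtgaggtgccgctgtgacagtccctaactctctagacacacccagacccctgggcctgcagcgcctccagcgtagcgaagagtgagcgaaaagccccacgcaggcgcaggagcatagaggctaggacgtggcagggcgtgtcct
The letters searched on both strands were those of the TATA box (TATAAA), the CCAAT box by its own letters, the GC box (GGGCGG), the AP-1 site (TGANTCA), the STAT site (TTCNNNGAA) and the E-box (CACGTG), with no overlap of matches in these windows. The only match was the E-box, 38 to 33 bases before the *Ceacam1* start, and that hexamer occurs in 6.02% of 32851 promoter windows of the same length. For comparison, 33.8% of the windows held a CCAAT box, 32.7% a GC box, 12.4% a TATA box, 7.02% a STAT site and 6.75% an AP-1 site. The share of G and C was 58.8% for both genes, against a median of 52.4%. *Ccn3* is named without a window.

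Levels are TPM, transcript abundances relative to the total of a library, scaled for transcript length, and differences are between means of log2(TPM + 1), where a value of 1 is close to a doubling only for genes well above 1 TPM. A gene was called when it differed at least 1.2-fold and limma put its unadjusted p below 0.05. In the main fits, with all libraries, no gene passed a Benjamini-Hochberg adjusted p under 0.05 in any of the group comparisons. In these fits 60 to 428 genes were called and 63 to 472 had an unadjusted p under 0.05. *Anxa5* was among the abundant genes, with a mean of 399 TPM over the 37 libraries (97th percentile of 10874 genes), while *Ceacam1* (10.3 TPM), *Cd38* (11.1 TPM) and *Ccn3* (17.1 TPM) lay between the 25th and the 40th percentile.

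All 12 astrocyte markers were above 0 in every library and summed to 17741 to 24614 TPM. Markers of other cells were also measured, with 11 of 12 endothelial, 7 of 10 ependymal and choroid plexus, 5 of 12 microglial and 4 of 11 neuronal markers above 0 in every library and none at 0 in all of them. Oligodendrocyte markers, of which 3 of 12 were above 0 in every library, summed to a median of 3127 TPM in ipsilateral sham (542 to 4499), 1373 TPM in PTE- (774 to 2304) and 1470 TPM in PTE+ libraries (1223 to 2372), and to 1868, 2265 and 2272 TPM contralaterally. Most single markers of this list did not follow the contralateral sum. Of the 12, 8 had a lower median in contralateral PTE- and 9 in contralateral PTE+ than in sham libraries, and ipsilaterally 10 and 9 did. The rho of the oligodendrocyte sum with the members over 19 ipsilateral libraries was 0.126 for *Ceacam1*, −0.435 for *Cd38*, −0.3 for *Anxa5* and 0.228 for *Ccn3*. The part of these cells in the members' values was not tested. In such bulk libraries fewer cells of a type and less RNA per cell cannot be told apart. The ipsilateral PTE- library of mouse 9_14 stood apart, with 10727 genes above 0 against 15599 to 18534 in the others and 18.2% of 10874 genes at 0 against at most 0.267%. *Ceacam1* and *Ccn3* were both at 0 in it, so their ipsilateral differences that involve PTE- mice are given with and without it.

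**Figure D1:**
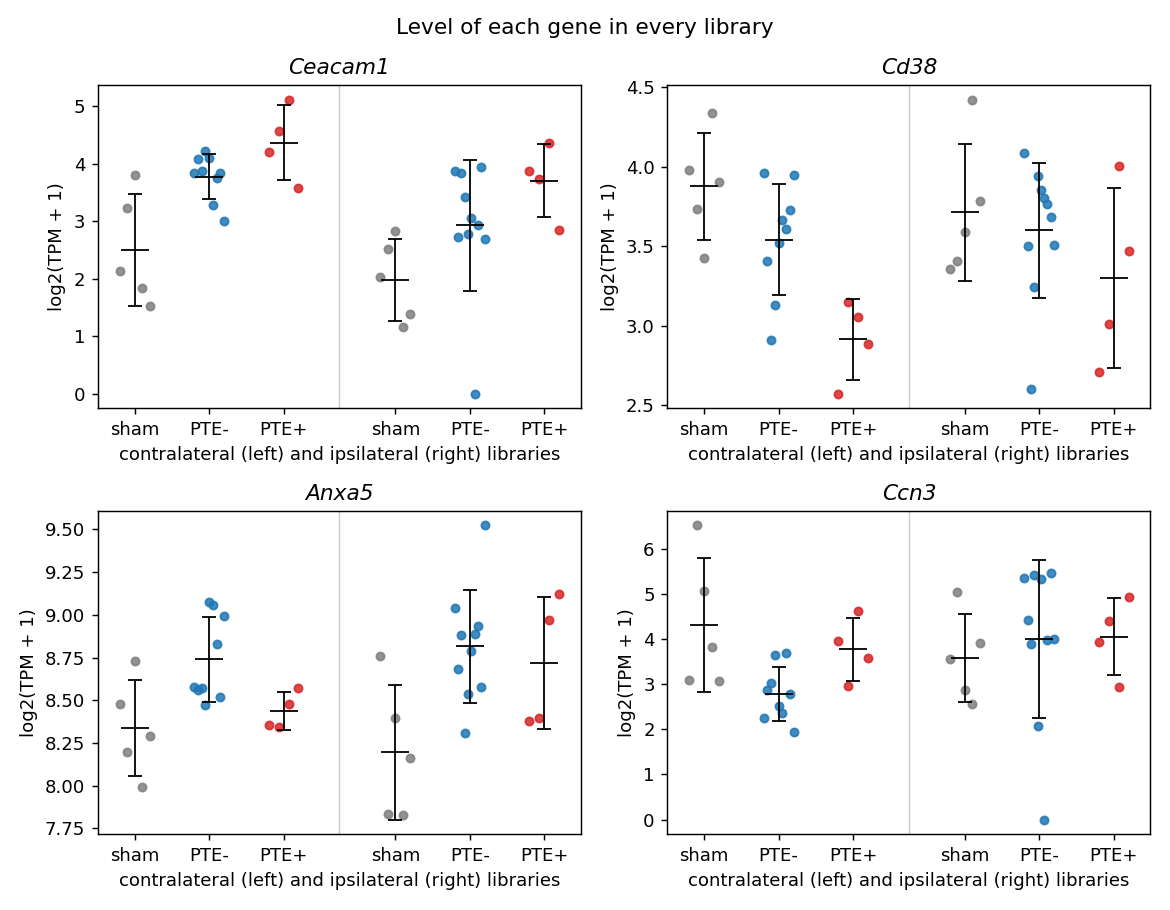
Level of the 4 genes in each library as log2(TPM + 1), with contralateral groups on the left of each panel and ipsilateral groups on the right. Points are libraries, the horizontal bar is the group mean and the whiskers are 1 SD. The group mean of *Ceacam1* is lowest in sham mice on both sides, and the point at 0 for *Ceacam1* and *Ccn3* is the PTE- library of mouse 9_14.

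The adhesion receptor gene *Ceacam1* was higher in injured than in sham mice on both sides, by 2.67-fold of the mean TPM contralaterally and 2.86-fold ipsilaterally. Contralateral sham libraries held 1.87, 2.56, 3.37, 8.33 and 13.03 TPM, PTE- libraries ran from 7.01 through a median of 13.3 to 17.6 TPM, and PTE+ libraries held 10.9, 17.4, 22.8 and 33.6 TPM. All 13 injured libraries were above the sham median and 9 were above every sham library. The contralateral difference was 1.45 ± 0.33 (SE) for CCI against sham, 1.27 ± 0.33 for PTE- against sham, 1.86 ± 0.48 for PTE+ against sham and 0.59 ± 0.26 for PTE+ against PTE-. These contralateral values chose the gene and are given without a test. The last of them rested on few mice, and it was 0.34 once PTE+ mouse 9_17 was left out and 0.52 once PTE+ mouse 8_17 was.

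On the injured side, which did not enter the choice, *Ceacam1* was called in CCI against sham. Ipsilateral sham libraries held 1.23, 1.61, 3.06, 4.74 and 6.08 TPM, PTE- libraries ran from 0 through 7.01 to 14.4 TPM, and PTE+ libraries held 6.17, 12.4, 13.7 and 19.4 TPM. All 4 PTE+ libraries and 10 of the 14 injured libraries lay above every sham library, and only that of mouse 9_14 lay below the sham median. In CCI against sham the difference was 1.17 ± 0.49 (limma unadjusted p = 0.0267, adjusted p = 1, two-sided exact permutation p = 0.0353). Without mouse 9_14 it was 1.41 with an exact permutation p of 0.000467. It fell to 1.02 and 0.96, and was no longer called, without sham mouse 9_9 or 9_11.

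*Ceacam1* rose in ipsilateral PTE+ against sham by 1.72 ± 0.41 (limma unadjusted p = 0.00116, adjusted p = 1, exact permutation p = 0.0159), a rank of 4 among the 10447 genes tested by size of increase. In PTE- against sham the difference was 0.95 ± 0.53 and was not called (exact permutation p = 0.115), whereas without mouse 9_14 it was 1.27 (exact permutation p = 0.0025) and was called. PTE+ and PTE- did not separate on this side, with a difference of 0.78 ± 0.57 (exact permutation p = 0.239), or 0.45 ± 0.30 without mouse 9_14 (exact permutation p = 0.213), and 3 of 4 PTE+ libraries lay above the PTE- median. Among mice whose names begin with 8 and with 9, a prefix that the labels do not explain, the CCI difference was 1.28 and 1.14.

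Within a mouse, *Ceacam1* was lower on the ipsilateral side in 14 of 17 mice, by 0.48 ± 0.14 (SE). The side difference was −0.52 in 5 sham mice, all of them lower ipsilaterally, −0.52 in 9 PTE- mice and −0.31 in 3 PTE+ mice, of which mouse 9_18 went the other way, with 19.4 TPM ipsilaterally and 10.9 TPM contralaterally. Since the contralateral values chose the gene, this difference is described and not tested.

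*Ceacam2*, a close paralog of *Ceacam1* with which it can share reads, was at most 2.28 TPM in every library. Its mean was 1.45 TPM in contralateral sham, 0.642 in PTE- and 0.402 TPM in PTE+ libraries, and 0.86, 0.319 and 0.202 TPM ipsilaterally. Low as it was, it ran in the opposite order to *Ceacam1* on both sides, and how reads were shared between the pair is uncertain. The summed TPM of both genes was 2.96-fold the sham level in contralateral PTE+ and 3.12-fold in ipsilateral PTE+ libraries, against 3.63-fold and 3.86-fold for *Ceacam1* alone.

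The sum of the endothelial markers followed *Ceacam1* on the contralateral side, though most markers of the list did not do so in PTE- mice. Their median was 854 TPM in contralateral sham (454 to 1892), 1056 TPM in PTE- (528 to 1427) and 1608 TPM in PTE+ libraries (774 to 2523), and Spearman's rho with *Ceacam1* was 0.618 over 18 contralateral libraries. The medians of *Cldn5*, a tight junction gene of brain endothelium, were 228, 249 and 398 TPM in the same order, and those of *Pecam1* were 18.2, 13.4 and 19.8 TPM. Of the 12 markers, 3 had a higher and 9 a lower median in contralateral PTE- than in sham libraries, and 10 had a higher one in PTE+. On the ipsilateral side the endothelial medians were 998, 778 and 892 TPM for sham, PTE- and PTE+, and rho was 0.074 over 19 libraries, while 7 of the 12 markers had a higher median in PTE- and 11 in PTE+ than in sham. The part of endothelial RNA in the *Ceacam1* values was not tested.

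The NAD-consuming ectoenzyme gene *Cd38* was lowest in contralateral PTE+ astrocytes and did not pass the test in any ipsilateral comparison. Contralateral sham libraries held 9.75, 12.3, 13.9, 14.7 and 19.2 TPM, PTE- libraries ran from 6.52 through 11.2 to 14.6 TPM, and PTE+ libraries held 4.94, 6.38, 7.3 and 7.88 TPM. All 4 PTE+ libraries were below every sham library and below the PTE- median. The contralateral differences that chose it were −0.53 ± 0.21 for CCI against sham and −0.63 ± 0.20 for PTE+ against PTE-, beside −0.33 ± 0.20 for PTE- and −0.96 ± 0.23 for PTE+ against sham. Without sham mouse 9_11 the CCI difference was −0.41.

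Ipsilateral sham libraries held 9.23, 9.61, 11.04, 12.8 and 20.4 TPM of *Cd38*, PTE- libraries ran from 5.06 through 12.2 to 15.97 TPM, and PTE+ libraries held 5.52, 7.07, 10.1 and 15.04 TPM. The 3 groups overlapped. The differences were −0.20 ± 0.25 in CCI against sham (exact permutation p = 0.418), −0.30 ± 0.29 in PTE+ against PTE- (exact p = 0.303), −0.11 ± 0.26 in PTE- against sham (exact p = 0.638) and −0.41 ± 0.30 in PTE+ against sham (exact p = 0.262). Each had the sign of its contralateral counterpart, and the libraries of both sides come mostly from the same mice.

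Between sides of a mouse *Cd38* differed by 0.04 ± 0.09 over 17 mice, 10 of them higher ipsilaterally. The widest gap was in PTE+ mouse 9_18, with 15.04 TPM ipsilaterally and 6.38 TPM contralaterally. The endothelial marker sum moved against *Cd38*, with rho −0.484 contralaterally, −0.481 ipsilaterally and −0.532 over all 37 libraries, and its part in the *Cd38* values was not tested. *Bst1*, a related ectoenzyme gene next to *Cd38* on chromosome 5, stayed at or below 1.79 TPM.

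The phosphatidylserine-binding gene *Anxa5* was higher after injury on the ipsilateral side in both outcome groups, and on the contralateral side its highest levels were in PTE- mice. Ipsilateral sham libraries held 226, 227, 286, 336 and 431 TPM, PTE- libraries ran from 317 through 456 to 735 TPM, and PTE+ libraries held 331, 336, 500.4 and 556 TPM. All 14 injured libraries lay above the sham median and 8 above every sham library. In CCI against sham the difference was 0.59 ± 0.17 (limma unadjusted p = 0.0026, adjusted p = 1, exact permutation p = 0.00473), a 1.501-fold higher mean TPM. It was called with each of 10 libraries left out in turn (0.50 to 0.73). These were the libraries of sham and PTE+ mice and of PTE- mouse 9_14, and the other PTE- libraries were not left out. The difference was 0.36 among mice named with 8 and 0.73 among those named with 9.

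*Anxa5* also rose in ipsilateral PTE- against sham, by 0.62 ± 0.18 (limma unadjusted p = 0.0033, adjusted p = 0.999, exact permutation p = 0.00633). In PTE+ against sham limma called it at 0.52 ± 0.23 (unadjusted p = 0.0403, adjusted p = 1), whereas the exact permutation gave p = 0.103. The call ended without PTE+ mouse 9_18 (0.44) or 9_19 (0.38), or without sham mouse 8_16 (0.43), 9_9 (0.51) or 9_11 (0.43). The difference was 0.70 among mice named with 9 and 0.08 among those named with 8, where there was 1 PTE+ library. PTE+ and PTE- differed by −0.10 ± 0.19 (exact permutation p = 0.63).

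Contralateral sham libraries held 253, 292, 312, 356 and 424 TPM of *Anxa5*, PTE- libraries ran from 355 through 380.4 to 538 TPM, and PTE+ libraries held 323, 326, 356 and 379.9 TPM. PTE- libraries thus reached above both other groups, and the 4 PTE+ libraries lay within the sham range. The differences that chose the gene were 0.31 ± 0.13 for CCI against sham and −0.30 ± 0.13 for PTE+ against PTE-, beside 0.40 ± 0.14 for PTE- and 0.10 ± 0.15 for PTE+ against sham. The CCI difference dropped out of the called genes without sham mouse 9_11 (0.22), 8_16 (0.27) or 9_9 (0.30), and the PTE+ against PTE- difference did so without PTE+ mouse 8_10 (−0.27), 8_17 (−0.27) or 9_17 (−0.32). Among PTE- mice the 5 named with 9 held 365 to 538 TPM and the 4 named with 8 held 355 to 380.4 TPM, and PTE+ against PTE- was −0.37 and −0.20 within the same names.

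Between sides of a mouse *Anxa5* differed by 0.01 ± 0.08, with 9 of 17 mice higher ipsilaterally. The summed ependymal and choroid plexus markers moved with *Anxa5*, with rho 0.508 over 37 libraries, 0.463 ipsilaterally and 0.503 contralaterally. Their median was 463 TPM in ipsilateral sham (300.0 to 795), 708 TPM in PTE- (406 to 1808) and 541 TPM in PTE+ libraries (392 to 620.3), and it was 550.4, 481 and 472 TPM contralaterally. Compared with sham, the group median was higher for 8 of the 10 markers in ipsilateral PTE- and 9 in ipsilateral PTE+ libraries, and for 1 and 2 of them contralaterally. *Ttr*, a defining transcript of choroid plexus, had group medians of 0.03 to 0.94 TPM and reached 771 TPM in 1 ipsilateral PTE- library. The part of these cells in the *Anxa5* values was not tested.

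**Figure D2:**
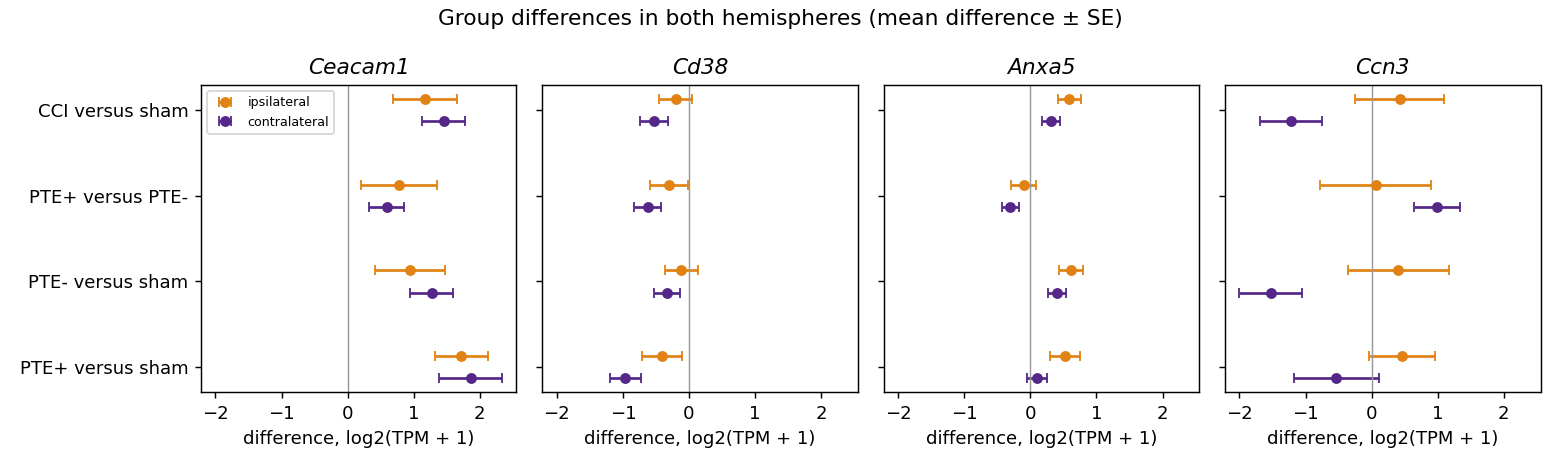
Difference of group means of log2(TPM + 1) for the 4 genes in 4 comparisons, with limma's SE as bars, ipsilateral in orange and contralateral in purple. The contralateral values chose the genes. *Ceacam1* lies to the right of 0 throughout, and *Ccn3* lies at −1.22 contralaterally and 0.42 ipsilaterally in CCI against sham.

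The matricellular gene *Ccn3* was lowest in contralateral PTE- astrocytes and did not pass the test in any ipsilateral comparison. Contralateral sham libraries held 7.33, 7.48, 13.2, 32.2 and 90.4 TPM, PTE- libraries ran from 2.81 through 5.9 to 11.8 TPM, and PTE+ libraries held 6.71, 10.98, 14.4 and 23.4 TPM. The sham group was the most widely spread of all groups for this gene in TPM, and 7 of 9 PTE- libraries lay below every sham library. The contralateral differences that chose it were −1.22 ± 0.47 for CCI against sham and 0.99 ± 0.34 for PTE+ against PTE-, beside −1.53 ± 0.48 for PTE- and −0.54 ± 0.64 for PTE+ against sham. Without sham mouse 8_16, the library at 90.4 TPM, the CCI difference was −0.67, and without sham mouse 9_10 it was −1.03. Without PTE+ mouse 9_17 the difference between PTE+ and PTE- was 0.71.

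Ipsilateral sham libraries held 4.9, 6.25, 10.8, 14.1 and 31.8 TPM of *Ccn3*, PTE- libraries ran from 0 through 17.7 to 43.3 TPM, and PTE+ libraries held 6.66, 14.3, 20.2 and 29.6 TPM. All groups overlapped on this side. The difference was 0.42 ± 0.68 in CCI against sham (exact permutation p = 0.59), 0.06 ± 0.84 in PTE+ against PTE- (exact p = 0.974), 0.41 ± 0.77 in PTE- against sham (exact p = 0.662) and 0.47 ± 0.50 in PTE+ against sham (exact p = 0.468). Without mouse 9_14 the difference was 0.73 in CCI against sham (exact p = 0.185), −0.38 in PTE+ against PTE- (exact p = 0.545) and 0.85 in PTE- against sham (exact p = 0.178). The ipsilateral CCI difference was thus opposite in sign to the contralateral one, and the change between sides was not tested because the contralateral values chose the gene.

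Within a mouse *Ccn3* was higher ipsilaterally in 8 of 9 PTE- mice, by 1.66 ± 0.41 (SE), and lower or nearly equal in all 3 PTE+ mice, by a mean of −0.29 ± 0.19. In PTE- mouse 8_11 it was 39.9 TPM ipsilaterally and 3.73 TPM contralaterally, and in PTE- mouse 9_13 it was 39.2 and 4.11 TPM. The 5 sham mice went both ways, with 2 higher ipsilaterally and a mean of −0.72 ± 0.59. The mean over all 17 mice was 0.61 ± 0.38. The endothelial sum followed *Ccn3* contralaterally (rho 0.571) and not ipsilaterally (rho 0.005), and the ependymal and choroid plexus sum followed it ipsilaterally (rho 0.505) and not contralaterally (rho −0.137). The sum of meningeal, fibroblast and mural markers had a rho of 0.131 and −0.237 on the contralateral and ipsilateral side. Most single markers of this list nevertheless moved in the direction of *Ccn3* against sham. Of the 12, 9 had a lower median in contralateral PTE- and 10 in contralateral PTE+ than in sham libraries. On the ipsilateral side 8 had a higher median in PTE- and 10 in PTE+ than in sham libraries. The part of these cells in the *Ccn3* values was not tested.

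**Figure D3:**
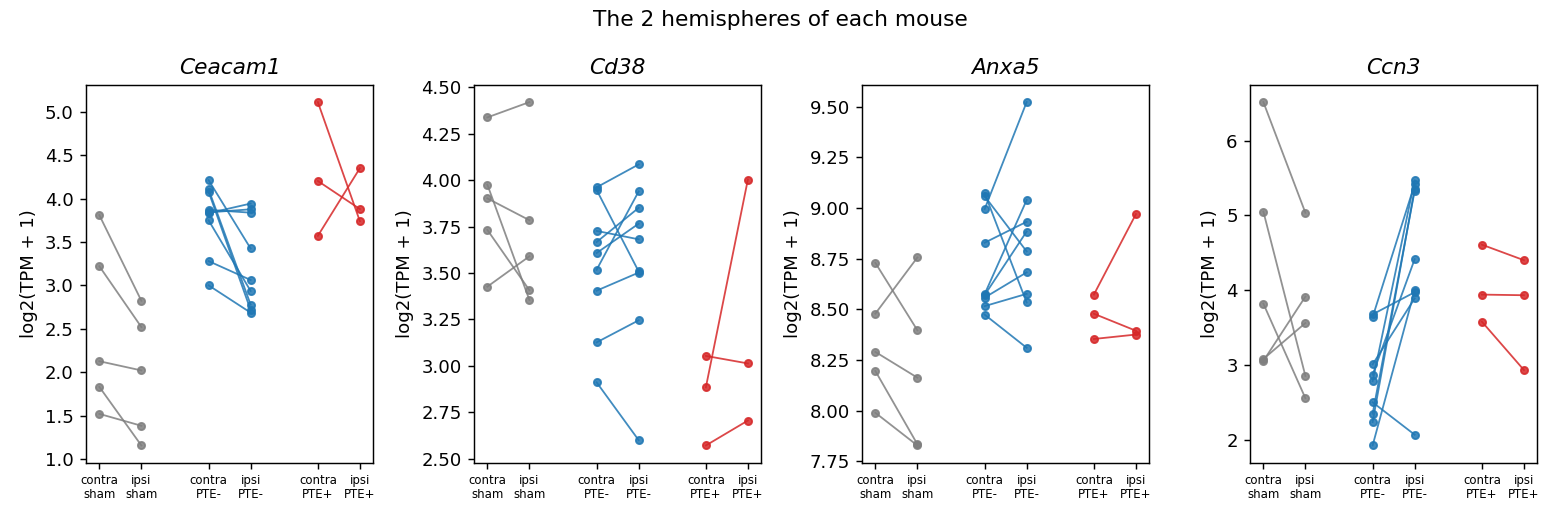
Level of the 4 genes on the contralateral and ipsilateral side of each of 17 mice as log2(TPM + 1), with a line for each mouse and columns for 5 sham, 9 PTE- and 3 PTE+ mice. *Ceacam1* is lower ipsilaterally in 14 mice, and *Ccn3* is higher ipsilaterally in 8 of 9 PTE- mice.

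Read by comparison, 2 of the 4 genes were called in ipsilateral CCI against sham (*Ceacam1* and *Anxa5*, both higher), where 1.62% of 10434 genes tested were called. In ipsilateral PTE+ against PTE- limma called 0 of the 4, 0 had an unadjusted p under 0.05 and 0 passed by exact permutation, while 0.573% of 10473 genes were called and the median of all genes was 0.12. In ipsilateral PTE- against sham 1 of 4 was called (*Anxa5*, 1.54% of all genes), and in ipsilateral PTE+ against sham 2 of 4 (*Ceacam1* and *Anxa5*, 1.56%). In the contralateral comparisons that the choice used, 4.05% of genes were called in CCI against sham and 2.79% in PTE+ against PTE-. The other contralateral comparisons share those libraries, so calls of the members there follow in part from the choice and are not counted. Over all genes, 3.76% were called in contralateral PTE- against sham and 1.97% in contralateral PTE+ against sham. The direction of calls over all genes moved with the scaling, from 57 higher and 371 lower to 255 and 155 with median centring in contralateral CCI against sham, from 203 and 88 to 148 and 213 in contralateral PTE+ against PTE-, and from 51 and 346 to 328 and 119 in contralateral PTE- against sham. Ipsilaterally it moved from 129 and 40 to 115 and 62 in CCI against sham, from 34 and 26 to 14 and 36 in PTE+ against PTE-, and from 124 and 39 to 101 and 97 in PTE+ against sham, while *Ceacam1* and *Anxa5* kept their sign against sham.

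At these thresholds 8 genes were called in both contralateral comparisons used for the choice, these 4 among them. The shares of all genes called were 4.05% in CCI against sham and 2.79% in PTE+ against PTE-. The smallest limma adjusted p over all genes was 0.978 in the first and 0.603 in the second. The 8 were not tested against the number that these shares give by chance, and no excess over it is claimed. The smallest differences among the members were those of *Anxa5*, 0.31 and −0.30. Just outside lay *Nudt17*, at −0.46 in CCI against sham and 0.39 in PTE+ against PTE-, and *Pdk1*, at −0.48 and 0.44, each called in the first comparison alone. In *Ceacam1* and *Cd38* the contralateral PTE+ difference pointed the same way as the injury difference, and in *Anxa5* and *Ccn3* it pointed back.

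Ordered by the mean of log2(TPM + 1), *Ceacam1* went from ipsilateral sham (1.98) through contralateral sham (2.50), ipsilateral PTE- (2.93), ipsilateral PTE+ (3.70) and contralateral PTE- (3.78) to contralateral PTE+ (4.36). *Cd38* went from contralateral PTE+ (2.91) through ipsilateral PTE+ (3.30), contralateral PTE- (3.54), ipsilateral PTE- (3.598) and ipsilateral sham (3.71) to contralateral sham (3.88). Contralateral PTE+ was thus at one end of the order for both genes, highest for *Ceacam1* and lowest for *Cd38*. Its place among the contralateral groups follows in part from the choice of the genes on those libraries. The order of *Anxa5* was ipsilateral sham (8.20), contralateral sham (8.34), contralateral PTE+ (8.44), ipsilateral PTE+ (8.72), contralateral PTE- (8.74) and ipsilateral PTE- (8.82). That of *Ccn3* was contralateral PTE- (2.78), ipsilateral sham (3.59), contralateral PTE+ (3.77), ipsilateral PTE- (3.99), ipsilateral PTE+ (4.05) and contralateral sham (4.31). In all 4 genes every pair of neighbours in these orders overlapped, and no step exceeded the larger SD of its pair.

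The level on one side of a mouse went with the level on the other for *Cd38*. As deviations from the group means over 17 mice, its Pearson's r was 0.68 (permutation p = 0.00422, adjusted p = 0.0169 over the 4 relations) and its Spearman's rho 0.60 (permutation p = 0.0174, adjusted p = 0.0697), with r = 0.56 without the 2 farthest mice, so that it passed the correction by r and not by rho. For *Anxa5* r was 0.53 (permutation p = 0.0474, adjusted p = 0.0947) and rho 0.55 (permutation p = 0.0356, adjusted p = 0.0712), with r = 0.70 without the 2 farthest. *Ceacam1* had r = 0.49 (permutation p = 0.094, adjusted p = 0.125) and rho 0.47 (permutation p = 0.0934, adjusted p = 0.125), and *Ccn3* had r = 0.29 (permutation p = 0.284, adjusted p = 0.284) and rho 0.21 (permutation p = 0.471, adjusted p = 0.471). Without the 2 farthest mice these were r = 0.26 and 0.12. Within the 7 mice named with 8 and the 10 named with 9, r was 0.87 and 0.24 for *Cd38*, 0.78 and 0.49 for *Anxa5*, 0.19 and 0.53 for *Ceacam1* and 0.60 and 0.01 for *Ccn3*, and these values were not compared by a test. Across 10874 genes within a mouse, the deviations of its 2 libraries also correlated, with a median r of 0.396 over 17 mice. The relation was thus not shown to be particular to *Cd38*. Ipsilateral libraries are in this sense not fully separate from the contralateral ones that chose the genes. The contralateral values in these relations are themselves the ones that chose the genes. Deviations take out the group means, and whether the choice still bears on these permutation p-values was not tested.

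Over all 37 libraries the gene whose pattern was most like *Ccn3* was *Slc47a1*, an organic cation exporter, with rho 0.909, followed by *Igfbp6*, an IGF-binding protein, at 0.793 and the collagen gene *Col6a1* at 0.791. *Slc47a1* had a mean of 13.9 TPM in contralateral sham, 1.16 in PTE- and 5.29 TPM in PTE+ libraries, and 1.64, 5.64 and 4.71 TPM ipsilaterally. It was thus also lowest in contralateral PTE- libraries, and it was among the 8 genes called in both contralateral comparisons. The lowest rho with *Ccn3* were those of *Dera* (−0.581) and *Fars2* (−0.557).

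The closest patterns to *Anxa5* were those of *Macrod1*, a mono-ADP-ribosylhydrolase (rho 0.772), *Ccdc24* (0.668) and the galectin-3 gene *Lgals3* (0.665), and the farthest were *Zfp13* (−0.565) and *Gm10184* (−0.553). For *Cd38* the closest were *Acadsb*, an acyl-CoA dehydrogenase (0.672), *Kdsr*, an enzyme of ceramide synthesis (0.663), and *Rpn2*, a subunit of the oligosaccharyltransferase (0.661), and the farthest were *Rex1bd* (−0.678) and the semaphorin gene *Sema3f* (−0.648). *Ceacam1* had the loosest neighbours, the MHC class I genes *H2-Q4* (0.606) and *H2-T23* (0.586) and *Znrd1as* (0.567), with the Polycomb gene *Cbx8* (−0.63) and the kinase gene *Mapk4* (−0.615) at the other end. These are descriptions across libraries of 20 mice, most of which gave 2 libraries. Among the 4 genes themselves, rho was −0.447 for *Ceacam1* and *Cd38*, and the other pairs lay between −0.269 and 0.144. As deviations from the group means it was −0.327 for *Ceacam1* and *Cd38*, 0.475 for *Ceacam1* and *Ccn3* and −0.381 for *Cd38* and *Ccn3*.

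**Figure D4:**
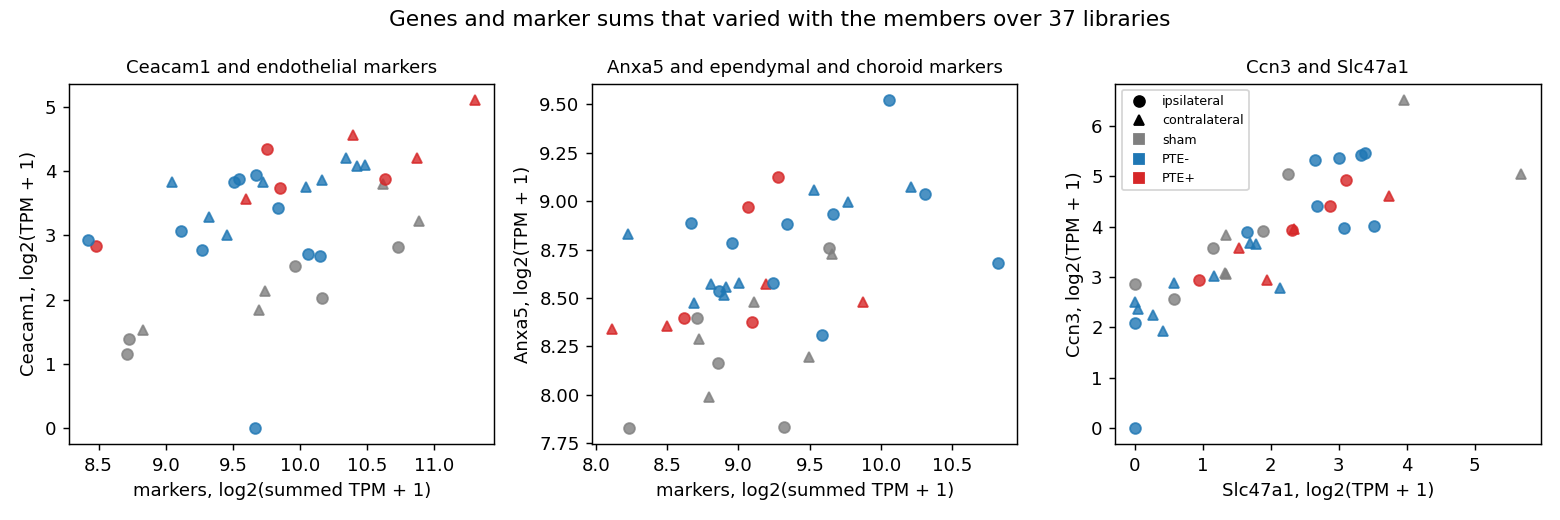
*Ceacam1* against summed endothelial markers, *Anxa5* against summed ependymal and choroid plexus markers, and *Ccn3* against *Slc47a1*, each axis as log2(TPM + 1) and each point one of 37 libraries. Circles are ipsilateral and triangles contralateral, and grey, blue and red are sham, PTE- and PTE+. Spearman's rho over the 37 libraries is 0.477, 0.508 and 0.909.

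Around *Anxa5*, the list of other annexins and S100 proteins, calcium-binding partners of annexins, leaned upward on the injured side. In ipsilateral CCI against sham 14 of its 15 tested genes were higher, with a median of 0.20 against −0.01 over all genes. Of the 15, 2 were called, beside 1.62% of all genes. The called genes were *S100a6*, which rose by 0.55 ± 0.15 (limma unadjusted p = 0.00165, adjusted p = 1), and *Anxa2*, which rose by 0.47 ± 0.21 (unadjusted p = 0.0408, adjusted p = 1). Without sham mouse 9_11 the *Anxa2* difference was 0.24, and in PTE- against sham it was 0.52 with that mouse and 0.30 without it. *S100a6* and *Anxa2* were also called in PTE- against sham. In PTE+ against sham *S100a6* was called, and so was *S100a4*, with 21.97 to 39.8 TPM in sham and 40.8 to 56.3 TPM in PTE+ libraries, a difference of 0.79 ± 0.19 (limma unadjusted p = 0.00154, adjusted p = 1). The ipsilateral *S100a4* median was 46.4 TPM in PTE+ and 43.7 TPM in PTE- libraries, which ran from 0, in mouse 9_14, to 79.4 TPM. Its contralateral means were 21.1, 29.1 and 35.1 TPM in sham, PTE- and PTE+ libraries, so higher levels were not particular to ipsilateral PTE+. On the contralateral side 7 of 15 genes of the list were higher in CCI against sham, with a median of −0.05 against −0.07 over all genes. There 1 was called, beside 4.05% of all genes.

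Of 22 tested genes of phosphatidylserine exposure and recognition, 1 was called in ipsilateral CCI against sham, beside 1.62% of all genes. It was the scramblase family gene *Plscr4*, higher by 0.59 ± 0.26 (limma unadjusted p = 0.0336, adjusted p = 1). *Xkr8*, a scramblase cleaved by caspases, fell by 0.66 in ipsilateral PTE+ against sham (limma unadjusted p = 0.0291, adjusted p = 1). In contralateral CCI against sham, where 4.05% of all genes were called and 371 of 428 calls were lower, 3 of 21 genes of this list were called. Around *Cd38*, 1 of 22 tested genes of NAD metabolism was called in ipsilateral CCI against sham and in PTE- against sham, beside 1.62% and 1.54% of all genes. It was *Naprt*, which makes NAD from nicotinic acid and was higher by 0.33 ± 0.14 in the first (limma unadjusted p = 0.0257, adjusted p = 1), or by 0.22 without sham mouse 8_16. On the contralateral side 1 of 22 was called in CCI against sham, beside 4.05% of all genes.

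Around *Ccn3*, 1 of 21 tested genes of the CCN family and its receptors was called in ipsilateral CCI against sham, beside 1.62% of all genes. It was the family member *Ccn1*, which fell by 0.41 (limma unadjusted p = 0.0484, adjusted p = 1), or by 0.14 without sham mouse 9_11. *Fbln1*, a fibulin of the extracellular matrix, was higher by 0.69 ± 0.31 in ipsilateral PTE+ against sham (limma unadjusted p = 0.0484, adjusted p = 1). In contralateral CCI against sham 1 of 22 was called, beside 4.05% of all genes, with a median of −0.17 against −0.07 over all genes. *Ccn5*, another family member, was below the filter of 5 TPM and was not tested. Its ipsilateral mean was 0.152 TPM in sham (at most 0.45), 2.44 in PTE- and 4.93 TPM in PTE+ libraries. PTE- libraries ran from 0, in mouse 9_14, to 7.03 TPM, and PTE+ libraries from 2.17 to 9.43 TPM. Contralateral means were 0.328, 0.063 and 0.608 TPM. Around *Ceacam1*, 0 of 12 tested family members and signalling partners were called by limma in ipsilateral CCI against sham and 0 had an unadjusted p under 0.05, beside 1.62% of all genes called. Contralaterally 1 of 12 was called, beside 4.05% of all genes. In ipsilateral PTE+ against PTE-, where 0.573% of all genes were called, 0 genes of all 5 lists were called by limma, and 0 had an unadjusted p under 0.05.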

How the data were processed

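RNA of ACSA-2 selected cortical astrocytes was sequenced from 19 ipsilateral and 18 contralateral libraries of 20 mice. The authors made libraries with SMART-Seq v4, trimmed reads with Trim Galore (0.6.4), quantified them on mm10 with RSEM (1.2.28) and Bowtie2 (2.4.1), and deposited TPM per Ensembl gene, 1 table per hemisphere. The release of their annotation is not given in the sources used here. Their own comparisons used DESeq2 (1.36.0) on raw counts, which were not used here. TPM sum to the same total in each library and keep no depth, so the depth and the counting error behind each value are unknown. RSEM assigns reads shared by near-identical genes by estimation, so values of such paralogs are uncertain.

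GENCODE vM21 (GRCm38) was the source of positions and of symbols, found for all but 119 of 21975 identifiers, and promoters came from RefSeq on GRCm38.p6. Here log2(TPM + 1) was compared with limma (3.58.1, R 4.3.3) with a variance trend, over genes whose mean exceeded 5 TPM in some group compared, with an unadjusted p under 0.05 and a fold of at least 1.2 for a call and Benjamini-Hochberg adjustment over all genes tested. Single values were tested by two-sided exact permutation of libraries, and correlations with 100000 permutations of mice within groups. Both hemispheres of a mouse are paired by the mouse name in the labels, and the deviations of paired libraries from their group means correlated in 16 of 17 mice above 0.1 (median 0.396). A test of the difference between sides had been planned, and it is given as a description, because the contralateral values chose the genes. P-values treat the mice of a group as replicates. The scripts were tested on simulated data.

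The 4 genes, the pathway lists and the marker lists were chosen with earlier results of these data known. Other genes are named when they had the 3 highest or 2 lowest Spearman correlations with a member, belonged to a pathway list and were called ipsilaterally, or mark a cell type whose sum moved with a member. *Ceacam2*, *Bst1*, *Ccn5*, *Nudt17* and *Pdk1* were added after their values were seen. Alternatives were a pseudocount of 0.1, no filter or one at 1 TPM, quantile normalization, median centring, a joint fit of the 3 groups, array weights, a covariate for the mouse name prefix, a fold threshold of 1.5 or none, and single libraries left out. Single libraries were left out only for sham and PTE+ mice and, ipsilaterally, for PTE- mouse 9_14. The log2 ratio of mean TPM, and single libraries left out for the named pathway genes, were added after seeing the data. Tables used Python 3.11.15 with scipy 1.17.1, pandas 2.3.3 and numpy 2.4.6, and figures matplotlib 3.10.9.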

Additional observations from a re-analysis of the deposited data

Results flagged for a closer look

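The ipsilateral PTE- library of mouse 9_14 held 0 TPM of *Ceacam1*, farther from the other 9 libraries of its group than Dixon's limit allows, with a gap of 0.681 of the whole range of log2(TPM + 1). Among 24 sets of libraries examined, 4 genes in 6 groups, this was the 1 set flagged, and chance flags about 1 set in 20. The same library held 0 TPM of *Ccn3*, 12.96 TPM of *Cd38* and 473 TPM of *Anxa5*, the last 2 within the range of the other PTE- libraries.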

How the results depend on the processing

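For the 4 genes in the 4 ipsilateral comparisons and between sides, 338 of 364 alternative values counted as kept. In the comparisons this meant the same direction and side of the threshold, and between sides a value within 1 SD. A change of sign between sides could thus count as kept. *Ccn3*, at 0.61 over 17 mice, was −0.72 in sham, −0.29 in PTE+ and 1.66 in PTE- mice. *Cd38* and *Anxa5* also changed sign in sham mice (−0.16 and −0.14) and not in the other groups. A changed fold threshold could not make a call of a gene that missed the unadjusted p threshold. The 338 thus include changed signs and calls that could not change. Against sham, *Anxa5* and *Ceacam1* reversed sign in none of the alternatives. *Ceacam1* in CCI against sham was 1.23 and no longer called with a pseudocount of 0.1 (0.96 to 1.41 leaving out single libraries). It became called in PTE- against sham with quantile normalization (1.10) and array weights (1.32; 0.74 to 1.27 leaving out single libraries), and in PTE+ against PTE- with array weights (0.64). *Anxa5* in PTE+ against sham lost its call with a fold threshold of 1.5 (0.52), without a filter (0.52), with median centring (0.44) and with the prefix as covariate (0.51), and ran from 0.38 to 0.66 leaving out single libraries. The difference of *Ccn3* between ipsilateral PTE+ and PTE-, which was not called, turned to −0.31 with quantile normalization, −0.019 with median centring, −0.43 with array weights and −0.39 as a ratio of mean TPM (−0.38 to 0.43 leaving out single libraries). That of *Anxa5* ran from −0.24 to 0.013, and *Cd38* in PTE- against sham from −0.20 to 0.064. The cause was not tested.

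Without the mouse as replicate block the differences between sides are the same by arithmetic, since the same pairs enter (−0.48 for *Ceacam1*, 0.04 for *Cd38*, 0.01 for *Anxa5* and 0.61 for *Ccn3*). They are among the alternatives counted above as kept, though this setting could not move them. With it 236 in place of 424 genes were called. Leaving out single sham or PTE+ mice, *Ccn3* ran from 0.60 to 0.79.

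Counts of genes called moved by over 1.5 times with several settings, from 89 to 843 in ipsilateral CCI against sham, 23 to 441 in PTE+ against PTE-, 95 to 650.0 in PTE- against sham and 83 to 1221 in PTE+ against sham, and contralaterally from 70 to 883, 118 to 828, 88 to 861 and 100 to 1114. Without ipsilateral mouse 9_14 they were 399, 197 and 416 in the first 3. Without that mouse 2 genes passed a limma adjusted p under 0.05 in ipsilateral CCI against sham and 1 in PTE- against sham. With array weights 1 gene passed in each of these 2 comparisons. Without a filter 1 gene passed in ipsilateral PTE+ against PTE-. Of the 20 genes named for their pattern, 9 kept their place among the highest or lowest with Pearson's r, 6 with deviations from group means, and 16 without mouse 9_14. TPM keep no depth, so precision at low TPM could not be separated from other spread.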
